A study of Mus musculus with 10 samples.

Results

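Heparan sulfate is a sulfated sugar chain carried by core proteins on the cell surface and in the extracellular matrix, and the 41 genes described here build it, trim it or carry it. They were chosen by their known role in the pathway, and only those with a row in the deposited table of read counts could be described: 39 of the 41 had one among 14300 genes. Heparanase (Hpse) and glypican 5 (Gpc5) were the other two and are not analysed here. The list was drawn up with fold changes of this same comparison known, so the members' differences between the sorted populations are given as a description, without a p value, and are no test of the pathway.

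The cells came from embryos on the C57BL/6J strain that carried Grem1creERT, an inducible Cre recombinase under Grem1 regulatory sequence, and Rosa26LSLTdtomato, a reporter that turns red after Cre has acted. Pregnant dams were given tamoxifen at E13.5 and tissue was taken 24 h later, at E14.5. Live cells were sorted into TdTomato+ cells, in which Cre had been active in the cell or its parent, and TdTomato- cells, which comprised all the other live cells. Both populations therefore carried the same alleles and had seen the same tamoxifen, and the gate was set on littermates without Cre. There were 10 libraries, 1 of each population from each of 5 mice (numbered 2 to 6), and the labels do not say whether a mouse number stands for 1 embryo or a pool. The labels name brain as the source, while the study's methods describe dissected dorsal telencephalon without meninges.

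Heparan sulfate chains start from a short tetrasaccharide linker on a serine of the core protein. Polymerases then extend a chain of alternating glucuronic acid and glucosamine, and sulfotransferases modify it in order: N-deacetylation and N-sulfation, epimerisation of the uronic acid, then 2-O-, 6-O- and, least often, 3-O-sulfation. The pattern of sulfate groups sets which growth factors, morphogens and guidance cues bind the chain. In developing cortex the chains are known for holding FGF, Wnt, Slit and BMP family ligands, and gremlin 1, the product of Grem1, is itself a heparin-binding protein.

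Library totals lay between 23429034 and 27286180 counts, and levels below are CPM (read counts scaled to a common library total) after TMM scaling, with the s.d. over 5 mice. Grem1 itself stood at 63.3±3.10 CPM in TdTomato+ cells against 6.11±0.731 CPM, higher in the TdTomato+ library of all 5 mice. The populations also differed in make-up: 4 of 5 markers of deep-layer neurons and 4 of 4 general neuronal markers were higher in TdTomato+ cells, while 10 of 10 progenitor and 6 of 6 interneuron markers were lower. Summed progenitor markers ran from 143.8 to 209.0 CPM in TdTomato+ libraries and from 2217 to 2754 CPM in TdTomato- libraries. Markers of microglia, erythroid cells and oligodendrocyte precursors summed to at most 1.31, 16.7 and 3.35 CPM in TdTomato+ libraries and to at least 10.95, 31.7 and 40.8 CPM in TdTomato- libraries. Cajal-Retzius markers summed to 127 to 153 CPM and 208 to 371 CPM. Every difference below runs alongside this one, and its part in them was not tested. In RNA from a sorted population, fewer cells of a type and less RNA per cell cannot be told apart.

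Of the 39 members, 15 were higher in TdTomato+ cells, 19 were lower and 5 (Ext2, Ndst1, Hs6st3, Sulf1 and Sulf2) did not pass an adjusted p of 0.05 in the paired edgeR quasi-likelihood fit. The members' median log2 fold change was -0.11, within a range of -4.94 (Sdc4, fitted from few counts) to 5.11, and the median over all genes was -0.01. Across all 14300 genes, 37.9% were higher and 39.4% lower by the same threshold, so such calls were common in the whole table. When an absolute log2 difference of 2 or more was asked for as well, 4 members were higher and 5 lower, beside 3.2% and 9.74% of all genes. In 27 members the 5 values of one population did not overlap the 5 of the other, as was the case for 61.6% of all genes. These counts rest on the contrast with which the members were chosen, and nothing is read from them. All 4 members that were higher by both thresholds were 3-O-sulfotransferases. The 5 that were lower were another 3-O-sulfotransferase, Hs3st3a1, and the core proteins Gpc3, Sdc2, Sdc4 and Hspg2.

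**Figure D1:**
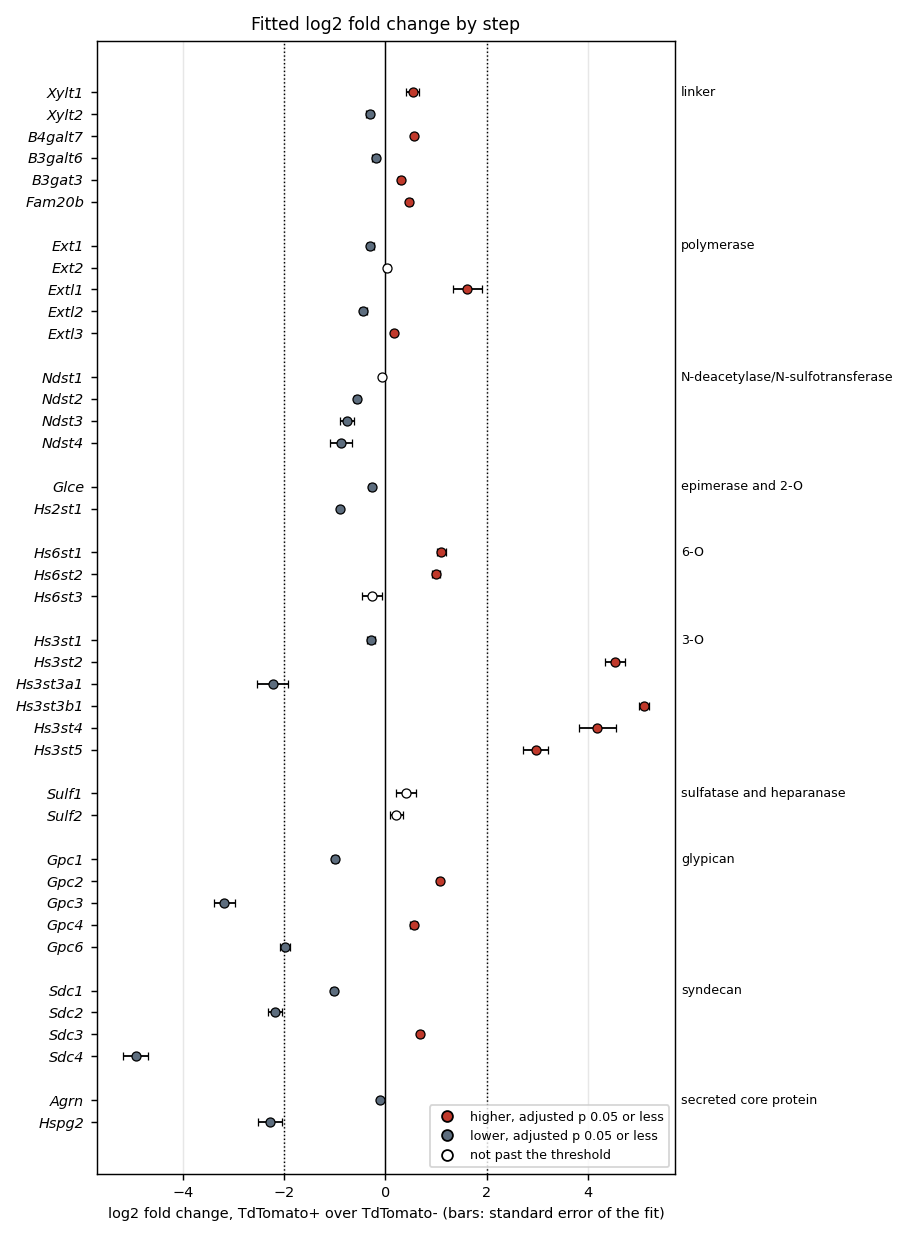
Fitted log2 fold change of the 39 members, TdTomato+ over TdTomato-, with the standard error of the fit as bars and dotted lines at -2 and 2. Members of the linker and polymerase steps sit close to 0 apart from Extl1, while the 3-O-sulfotransferases span from -2.23 to 5.11.

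Log2 fold changes of the 6 linker enzymes, 4 higher and 2 lower, lay between -0.31 and 0.57. Xylosyltransferases attach the first sugar, and the pair went in opposite directions: Xylt1 by a log2 value of 0.54 (s.e. 0.13) and Xylt2 by -0.31 (s.e. 0.07). B4galt7, which adds the first galactose, had the largest absolute value of the step. Its levels in TdTomato+ libraries of mice 2 to 6 were 44.4, 40.8, 44.3, 41.0 and 38.4 CPM, and those in TdTomato- libraries were 30.0, 27.3, 30.0, 26.3 and 27.5 CPM. The lowest TdTomato+ value lay above the highest TdTomato- value, and the log2 fold change was 0.57 (s.e. 0.05). B3galt6, which adds the second galactose, had a log2 fold change of -0.19, a call lost in DESeq2 and without mouse 4, 5 or 6. The remaining values were 0.31 for B3gat3, which adds the glucuronic acid, and 0.47 for Fam20b, the kinase that phosphorylates the linker xylose.

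Of the 5 polymerase genes, 2 were higher, 2 lower and 1 not past the threshold. Ext1 and Ext2, which form the polymerase complex, were at 36.7±2.25 and 55.2±1.46 CPM in TdTomato+ cells against 45.1±2.39 and 54.0±3.67 CPM in TdTomato- cells. The log2 fold changes were -0.30 (s.e. 0.06) for Ext1 and 0.03 (s.e. 0.05) for Ext2. Extl3, the enzyme that commits a linker to heparan sulfate, stood at 154±2.83 against 136±7.01 CPM, and Extl2, a transferase that can cap the linker, at 13.0±1.52 against 17.6±1.70 CPM. Extl1 is a glucosaminyltransferase and had by far the lowest counts of the step: 14, 23, 16, 16 and 16 in TdTomato+ libraries of mice 2 to 6 and 2, 11, 6, 6 and 8 in TdTomato- libraries. Every TdTomato+ count was above every TdTomato- count. The pooled ratio was 3.04 (95% exact interval 2.01 to 4.70, which covers counting error only and not the spread between mice). Before TMM scaling, every gene of the deposited table exceeded 0.5 CPM in at least 5 libraries, and Extl1 was the member nearest that limit. Its fifth-largest value before scaling was 0.590 CPM, followed by Hs3st3a1 at 0.765 CPM. Only the TdTomato+ libraries of Extl1 were above 0.5 CPM. It therefore had a row through the population in which it was higher, and its separation is no test.

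**Figure D2:**
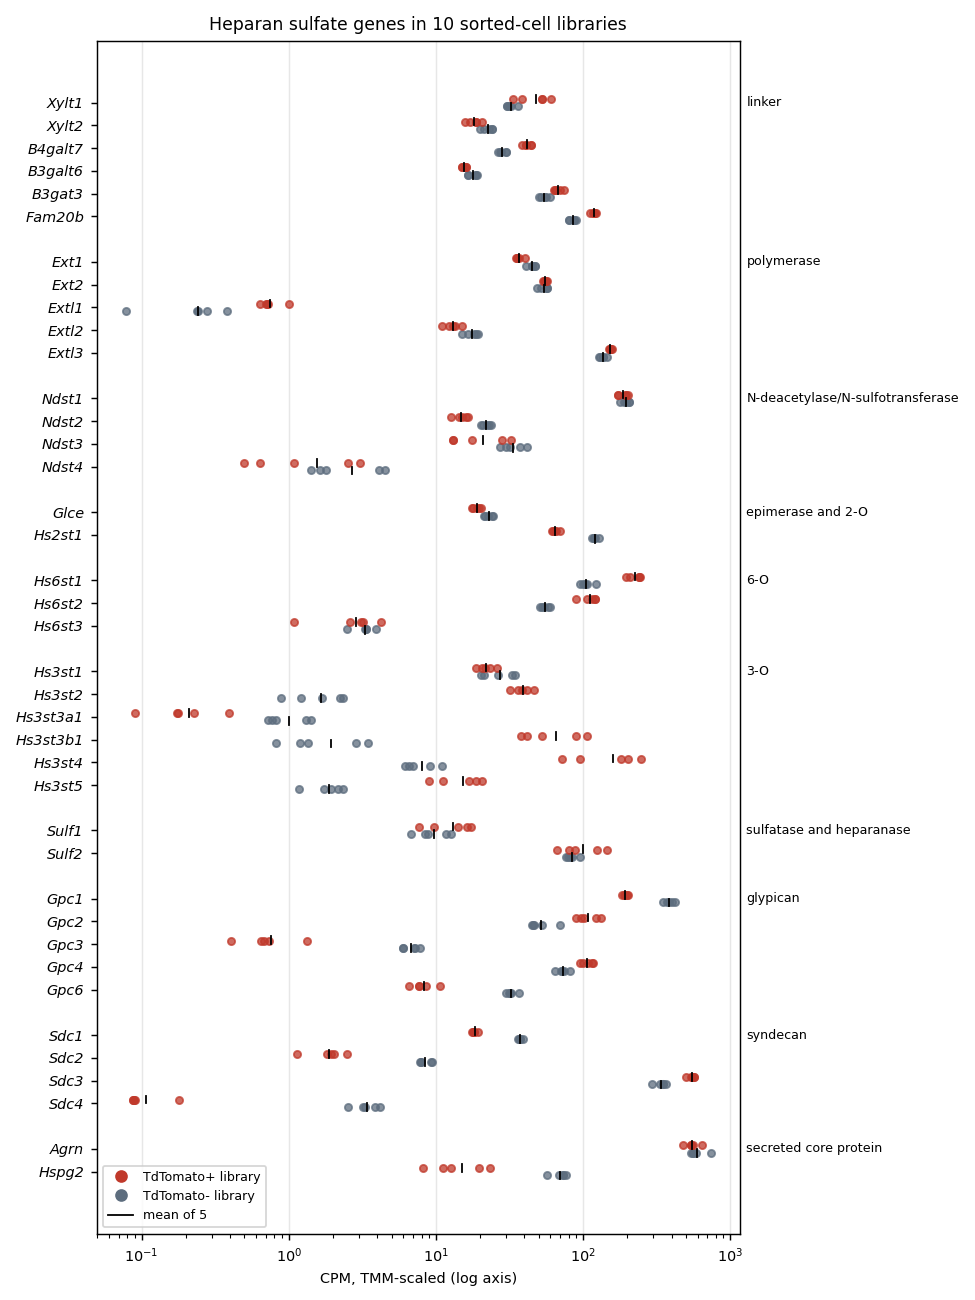
CPM of each member in each of the 10 libraries on a log axis, grouped by step, with red points for TdTomato+ libraries, grey points for TdTomato- libraries and a black tick for the mean of 5. Most enzymes of the early steps show grey and red points side by side, whereas Hs3st2, Hs3st3b1, Hs3st4, Sdc4 and Gpc3 separate by roughly a log unit or more.

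The N-deacetylase/N-sulfotransferases remove the acetyl group from glucosamine and put sulfate in its place, which opens the chain to every later step. Ndst1 made up most of this step in both populations, 80.3±3.23% of the summed CPM per kilobase in TdTomato+ cells and 73.5±2.28% in TdTomato- cells, and it did not pass the threshold (187±13.6 against 195±10.9 CPM). The other three were lower in TdTomato+ cells: Ndst2 by a log2 fold change of -0.56, Ndst3 by -0.76 and Ndst4 by -0.88, a call that Ndst4 lost with no replicate block. Ndst4, the rarest, had 14, 58, 69, 25 and 11 counts in TdTomato+ libraries of mice 2 to 6 and 46, 119, 113, 36 and 47 in TdTomato- libraries. The TdTomato+ library was the lower one within every mouse, while the 2 populations overlapped across mice, and mice 3 and 4 were high in both. Ndst3, whose gene lies 1713 kb from Ndst4 on chromosome 3, was likewise highest in mice 3 and 4: its TdTomato+ levels were 28.02 and 32.5 CPM in mice 3 and 4 and 13.0 to 17.5 CPM in mice 2, 5 and 6. Summed over the step, the level per kilobase was 28.1±0.967 CPM in TdTomato+ cells against 32.0±0.854 CPM.

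The epimerase and the 2-O-sulfotransferase act next and each has a single gene. Glce, which turns glucuronic into iduronic acid, stood at 18.9±1.20 CPM in TdTomato+ cells against 22.8±1.45 CPM in the rest. Hs2st1, which sulfates that iduronic acid, was at 64.8, 66.01, 62.9, 69.4 and 61.3 CPM in TdTomato+ libraries of mice 2 to 6. In TdTomato- libraries it was at 115, 121, 118, 129 and 118 CPM, so that every TdTomato+ value was well below every TdTomato- value. The log2 fold change was -0.89 (s.e. 0.04).

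Of the 3 genes for 6-O-sulfation, 2 were higher in TdTomato+ cells. Hs6st1, at 239, 210, 197, 244 and 240 CPM in TdTomato+ libraries of mice 2 to 6, was at 95.3, 103, 122, 106 and 100.1 CPM in TdTomato- libraries. The groups did not overlap, mice 3 and 4 being the lowest of the TdTomato+ libraries, and the log2 fold change was 1.10 (s.e. 0.09). Hs6st2 had nearly the same one, 1.00 (s.e. 0.08), from 55.2±3.68 to 111±12.9 CPM. Hs6st3 was at 3.08, 2.60, 4.24, 3.22 and 1.09 CPM in TdTomato+ libraries against 3.91, 3.35, 3.37, 3.29 and 2.47 CPM in TdTomato- libraries. It did not pass the threshold, and its log2 fold change of -0.27 (s.e. 0.20) ran from -0.43 to -0.09 when a mouse was left out (mouse 4 and mouse 6). The TdTomato+ library of mouse 6 was the low one and that of mouse 4 the high one. Per kilobase, the Hs6st1 share of the step was 72.0±1.03% in TdTomato+ cells against 67.8±1.92%, higher in all 5 mice and without overlap. Without division by length it was still higher in all 5 mice, but the groups overlapped (65.77% to 67.61% against 61.55% to 66.54%). The Hs6st2 share per kilobase was 24.99±0.991% against 25.3±1.89%. The summed level per kilobase was 56.6±5.10 against 27.98±1.97 CPM. Hs6st1 and Hs6st2 thus had fold changes of the opposite sign to that of Hs2st1. The Sulf enzymes, which take 6-O sulfate off finished chains outside the cell, are described below.

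3-O-sulfation is the rarest modification and has the largest enzyme family, and here it held the widest differences of the pathway. Hs3st3a1 and Hs3st3b1 are close paralogs, Hs3st1 makes the antithrombin-binding type of chain, and Hs3st2 and Hs3st4 are best known from neurons. Hs3st3b1 (chr11:63885792-63922290, minus strand, GRCm38) had 842, 2439, 2044, 1209 and 927 counts in TdTomato+ libraries of mice 2 to 6. It had 21, 83, 86, 34 and 34 counts in TdTomato- libraries. All TdTomato+ values were above all TdTomato- values, and mice 3 and 4 were the highest in both populations. Mean levels were 65.7±30.4 against 1.93±1.15 CPM, and the fitted log2 fold change was 5.11 (s.e. 0.10).

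Hs3st4 (chr7:123982869-124398989, plus strand) had 5442, 2185, 1628, 4188 and 4475 counts in TdTomato+ libraries. Its mean level there was the highest of the 6 listed genes, although Hs3st3b1 had more counts in mice 3 and 4. Hs3st4 counts in TdTomato- libraries were 180, 263, 276, 156 and 188. Mice 3 and 4 were the lowest in TdTomato+ cells and the highest in TdTomato- cells, an order in TdTomato+ cells opposite to that of Hs3st3b1. The log2 fold change was 4.19 (s.e. 0.36). Hs3st2 (chr7:121391859-121501770, plus strand) lies 2481 kb from Hs3st4 and had 797, 958, 867, 1061 and 707 counts in TdTomato+ libraries, with less spread between mice than its neighbour. Its TdTomato- libraries held 43, 35, 22, 56 and 67 counts, and the log2 fold change was 4.54 (s.e. 0.19). Hs3st5 had 457, 256, 202, 434 and 370 counts in TdTomato+ libraries and 30, 56, 54, 59 and 50 in TdTomato- libraries. As for Hs3st4, mice 3 and 4 were the lowest of the TdTomato+ libraries, and the log2 fold change was 2.98 (s.e. 0.25).

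The other 2 listed genes of the family were lower. Hs3st1 stood at 22.1±2.69 CPM in TdTomato+ cells against 27.1±6.47 CPM, lower within every mouse with a fitted value of -0.28 (s.e. 0.08) on the log2 scale, although the populations overlapped across mice and the call was lost with no replicate block. Hs3st3a1 (chr11:64435332-64522841, plus strand) had only 2, 9, 4, 4 and 5 counts in TdTomato+ libraries and 21, 38, 18, 36 and 22 in TdTomato- libraries. All TdTomato+ counts were below all TdTomato- counts, and pooled counts were 4.76 times as high in TdTomato- cells (95% exact interval 3.07 to 7.69, for counting error only and not the spread between mice). Only the TdTomato- libraries of Hs3st3a1 were above 0.5 CPM. It had a row through the population in which it was higher, so its separation is no test. Its gene lies 513 kb from Hs3st3b1, with a fold change of the opposite sign. The 2 genes share 8.82% of the 75-base stretches of Hs3st3a1, and 32.9% of its exonic length is overlapped on the other strand by F930015N05Rik, so its few counts are uncertain.

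**Figure D3:**
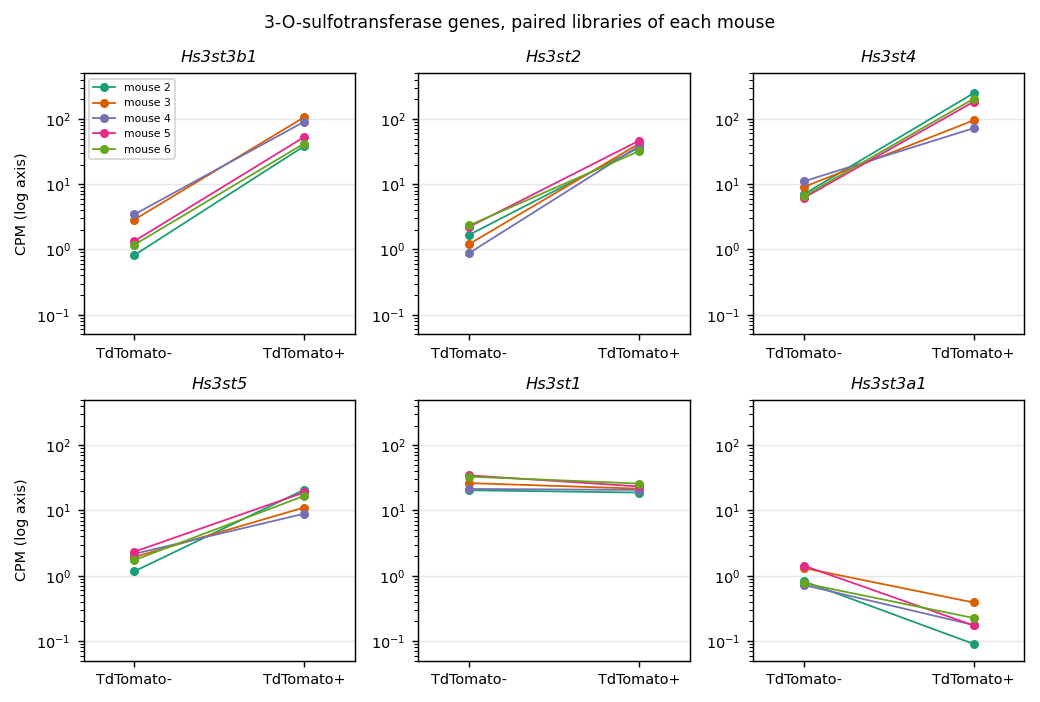
CPM of the 6 listed 3-O-sulfotransferase genes on a log axis, with a line joining the TdTomato- and TdTomato+ library of each mouse. The lines rise steeply for Hs3st3b1, Hs3st2, Hs3st4 and Hs3st5 in all 5 mice, stay nearly level for Hs3st1 and go down for Hs3st3a1.

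Of the 6 listed genes, Hs3st1 had the highest mean share of the 3-O step in TdTomato- cells and Hs3st4 in TdTomato+ cells. In TdTomato- cells Hs3st1 accounted for 74.0±6.34% of the summed CPM per kilobase and Hs3st4 for 15.9±5.50%. In TdTomato+ cells Hs3st4 accounted for 53.3±15.9%, Hs3st3b1 for 16.6±10.6%, Hs3st2 for 14.8±3.96% and Hs3st1 for 11.4±2.47%. The Hs3st4 share in TdTomato+ libraries of mice 2 to 6 was 70.2%, 38.5%, 34.8%, 58.4% and 64.8%, lowest in mice 3 and 4, and its mean was 49.1% without mouse 2. Without division by length Hs3st3b1 led in those 2 libraries, at 38.4% and 39.2% against 34.4% and 31.2% for Hs3st4, while the means were 23.5% and 50.8%. The summed level of the step was 89.6±18.2 against 16.3±2.75 CPM per kilobase, a ratio of 5.50, the highest of the 7 steps summed.

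The promoters of this family were read because 4 of the 6 listed genes were higher by both thresholds, and Hs3st3a1, next to Hs3st3b1, was lower. The windows below run 250 bases up to the start annotated by RefSeq (GRCm38.p6), 5′ to 3′ on the gene's strand, and capitals mark the GC box GGGCGG read on either strand. They are shown for the 4 genes that were higher by both thresholds and for Hs3st3a1. In order, they lie at chr7:121392046-121392295 (plus), chr11:63922285-63922534 (minus), chr7:123982578-123982827 (plus), chr10:36506557-36506806 (plus) and chr11:64435082-64435331 (plus). The window of Hs3st2 lies inside the gene span given above, which comes from GENCODE, so these annotations place its start differently.
Hs3st2: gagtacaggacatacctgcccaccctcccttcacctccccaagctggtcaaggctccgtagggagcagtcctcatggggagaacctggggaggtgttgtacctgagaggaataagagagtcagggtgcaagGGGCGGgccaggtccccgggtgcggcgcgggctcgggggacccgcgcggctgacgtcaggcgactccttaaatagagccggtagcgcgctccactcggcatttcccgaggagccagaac
Hs3st3b1: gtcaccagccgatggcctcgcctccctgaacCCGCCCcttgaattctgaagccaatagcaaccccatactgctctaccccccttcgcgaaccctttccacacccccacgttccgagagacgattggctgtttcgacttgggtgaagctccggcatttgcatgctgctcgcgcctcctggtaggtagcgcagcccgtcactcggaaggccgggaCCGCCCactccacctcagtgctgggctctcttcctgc
Hs3st4: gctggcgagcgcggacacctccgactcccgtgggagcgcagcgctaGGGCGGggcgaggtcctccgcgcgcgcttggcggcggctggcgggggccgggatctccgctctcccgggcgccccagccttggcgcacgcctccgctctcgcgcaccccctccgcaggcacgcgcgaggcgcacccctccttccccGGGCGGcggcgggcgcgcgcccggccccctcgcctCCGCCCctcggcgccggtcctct
Hs3st5: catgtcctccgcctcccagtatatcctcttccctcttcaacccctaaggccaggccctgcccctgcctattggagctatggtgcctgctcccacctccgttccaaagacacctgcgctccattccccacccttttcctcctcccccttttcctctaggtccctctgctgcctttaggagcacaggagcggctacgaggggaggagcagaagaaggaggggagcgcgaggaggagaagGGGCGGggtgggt
Hs3st3a1: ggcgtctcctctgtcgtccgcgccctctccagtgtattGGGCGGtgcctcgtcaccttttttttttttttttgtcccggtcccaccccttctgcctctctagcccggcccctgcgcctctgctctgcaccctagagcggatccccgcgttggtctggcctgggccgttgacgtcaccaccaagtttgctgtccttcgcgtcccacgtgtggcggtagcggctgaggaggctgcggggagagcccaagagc

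All 5 windows held the GC box, which 32.7% of 32851 RefSeq promoter windows of the same length hold, and so did that of 21 of the 30 members for which a window was at hand. The window of Hs3st1 did not. Hs3st4 had the highest GC content of the listed 3-O-sulfotransferase genes, 82.0% with 43 CpG dinucleotides, against 62.0% and 8 CpG for Hs3st5. Over the 35 member windows the median was 64.8% GC and 19 CpG, against 52.4% and 6 CpG over all windows. TATAAA was found in 2 of 30 members (12.4% of all windows), CAGATG in 2 (14.4%) and CAGCTG in 3 (13.0%), each on either strand. A member with several windows was counted if any of them held the motif, the GC box included. Shares of all windows count each window once, so the 2 kinds of share are not the same measure. The windows of Hs3st3b1 and Hs3st3a1, whose fold changes had opposite signs, both held the GC box. The part of these motifs in the differences was not tested.

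The extracellular sulfatases did not pass the threshold. Sulf1, at 9.75, 17.3, 16.3, 14.1 and 7.64 CPM in TdTomato+ libraries of mice 2 to 6, was at 6.80, 8.78, 12.7, 8.44 and 11.7 CPM in TdTomato- libraries, with TdTomato+ the higher library in 4 of 5 mice. Its log2 fold change of 0.41 (s.e. 0.20) passed the threshold when mouse 6 was left out (0.66) and in DESeq2 (0.41), and went down to 0.26 without mouse 3. Sulf2 made up 93.7±0.927% of the step in TdTomato+ and 94.4±1.19% in TdTomato- cells. It was at 80.3, 124, 145, 87.9 and 66.9 CPM in TdTomato+ libraries, with mice 3 and 4 highest, and at 82.1, 76.9, 94.9, 84.7 and 79.2 CPM in TdTomato- libraries. The TdTomato- values lay within the range of the TdTomato+ values. Its log2 fold change of 0.22 (s.e. 0.13) passed the threshold without mouse 6 (0.34) and went down to 0.098 without mouse 3.

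Glypicans are core proteins tied to the cell surface by a lipid anchor, and the 5 measured ones went both ways. Gpc3, a regulator of hedgehog and Wnt signalling, had 15, 17, 30, 15 and 9 counts in TdTomato+ libraries of mice 2 to 6 and 154, 224, 176, 183 and 171 in TdTomato- libraries. The groups were far apart, the TdTomato+ library of mouse 4 being the highest of its group, and the log2 fold change was -3.18 (s.e. 0.20). Its neighbour Gpc4 lies 107.2 kb away on the X chromosome and was higher in TdTomato+ cells, at 107±9.504 against 72.7±6.27 CPM. Gpc1, a main glypican of neurons and their precursors, was at 193±6.44 against 386±26.2 CPM, which is -0.99 (s.e. 0.05) on the log2 scale. Ankmy1, which overlaps 18.9% of the exonic length of Gpc1 on the other strand, had 9 to 27 counts in any library. Gpc6 was at 8.25±1.57 against 32.5±2.43 CPM, a log2 fold change of -1.99 that lay just short of the limit of 2 and reached -2.09 without mouse 5.

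Gpc2, which binds midkine and is found on growing axons, was higher in TdTomato+ cells, at 133, 89.0, 102, 97.3 and 123 CPM in mice 2 to 6 against 70.0, 45.8, 46.3, 45.2 and 52.6 CPM in TdTomato- libraries. The groups did not overlap, and mouse 2 was the highest in both. The log2 fold change was 1.07 (s.e. 0.05). The annotated gene Gm43720 overlaps 55.6% of the exonic length of Gpc2 on the same strand and was not among the 14300 genes, so counts at this locus are uncertain. Per kilobase, Gpc1 held 61.3±1.53% of the summed glypican level in TdTomato- cells and 35.8±1.502% in TdTomato+ cells, where Gpc4 held 38.5±2.33% and Gpc2 24.2±2.66%. The order in TdTomato+ cells rests on the division by length: without it Gpc1 held 46.3% and Gpc4 25.6%.

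**Figure D4:**
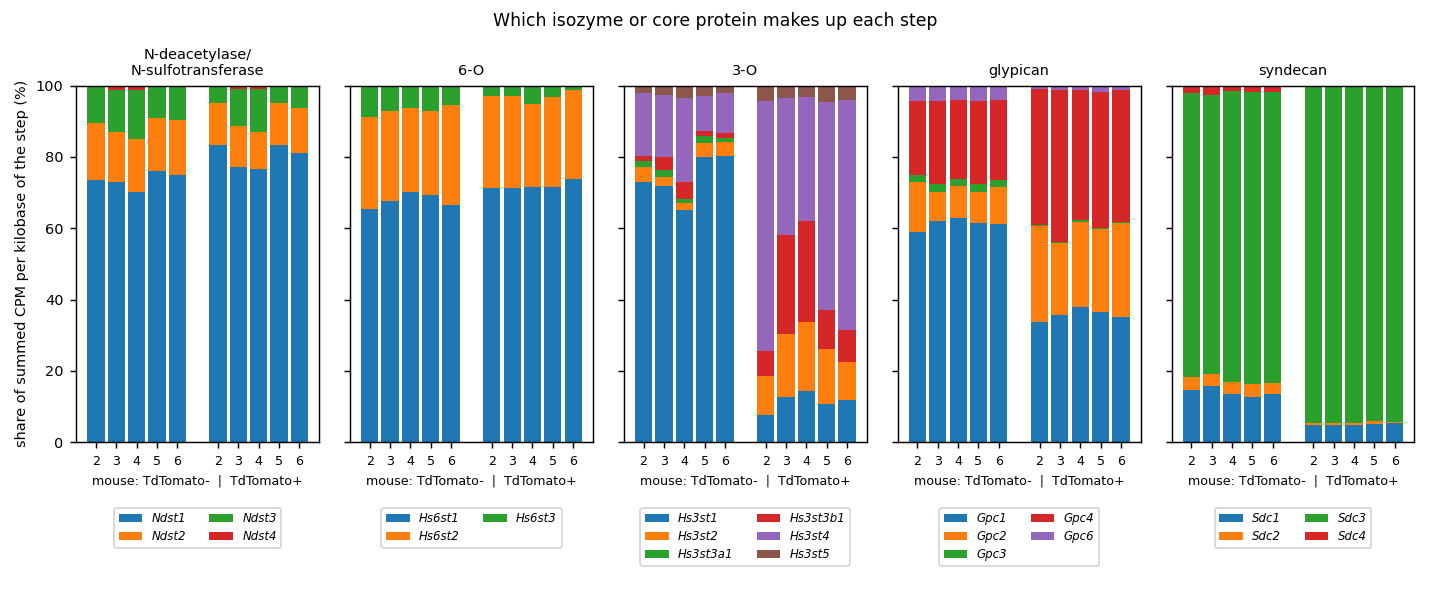
Share of each isozyme or core protein in the summed CPM per kilobase of its step, in percent, with 1 stacked bar for each library (mice 2 to 6 of TdTomato- on the left and of TdTomato+ on the right). Hs3st1 fills most of the TdTomato- bars of the 3-O panel and Hs3st4 the largest part of most TdTomato+ bars, while Sdc3 and Ndst1 lead their panels in both populations.

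Syndecans span the membrane. Sdc3, the neuronal syndecan, was at 91.2 CPM per kilobase the most abundant of all members in TdTomato+ cells. It held 94.4±0.245% of the summed syndecan level in TdTomato+ cells and 80.7±1.72% in TdTomato- cells. It stood at 546±26.2 against 339±27.5 CPM, which is 0.69 (s.e. 0.05) on the log2 scale. The other three were lower in TdTomato+ cells. Sdc4 had 2, 2, 2, 2 and 4 counts in TdTomato+ libraries of mice 2 to 6, below the floor of 3 counts in all but mouse 6. It had 99, 121, 63, 83 and 92 in TdTomato- libraries. Pooled counts were 32.3 times as high in TdTomato- cells (95% exact interval 18.3 to 63.0, for counting error only and resting on 12 TdTomato+ reads), and the fitted log2 fold change of -4.94 became -4.21 with a prior count of 2. Only the TdTomato- libraries of Sdc4 were above 0.5 CPM, so it had a row through the population in which it was higher. Sdc2 was at 1.88±0.488 against 8.49±0.809 CPM, and Sdc1 at 18.3±0.693 against 37.2±1.19 CPM.

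The 2 secreted core proteins belong to basement membranes, and agrin also to synapses. Agrn was nearly level, at 553±60.5 against 597±80.4 CPM, and its fitted value was -0.11 (s.e. 0.04) on the log2 scale, with a gap of only -0.002 in mouse 5. It counts among the 19 lower members, but lost that call under RLE scaling, in DESeq2, with no replicate block and without mouse 2, 3 or 6. Hspg2, which encodes perlecan, had 179, 452, 525, 257 and 281 counts in TdTomato+ libraries of mice 2 to 6 and 1883, 2123, 1427, 1926 and 1981 in TdTomato- libraries. All TdTomato+ values were below all TdTomato- values, mice 3 and 4 were the highest TdTomato+ libraries, and the log2 fold change was -2.28 (s.e. 0.23). Of the cell types that make much perlecan, pericyte markers in the table (3 of 5 listed, 2 of them lower in TdTomato+ cells) summed to 0.927 to 2.57 CPM in TdTomato+ libraries and 9.58 to 15.5 CPM in TdTomato- libraries. Endothelial markers (3 of 8 in the table, without Cldn5, Cdh5 or Tie1) summed to 1.72 to 3.13 and 2.61 to 4.44 CPM, and meningeal and fibroblast markers (2 of 7, without Col1a1) to 0.564 to 1.09 and 1.88 to 5.29 CPM. Their part in the lower levels of Hspg2, Sdc4, Sdc2 and Gpc3 was not tested.

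Differences between mice were not used to choose the members and could be tested. The edgeR test of the 4 mouse terms called 3 of the 39 members: Hs3st3b1 (adjusted p = 0.0057), Gpc2 (adjusted p = 0.0363) and Ndst4 (adjusted p = 0.0430), beside 1.86% of all genes. For Hs3st3b1 and Ndst4 both libraries of mice 3 and 4 were high, and for Gpc2 both libraries of mouse 2. Markers of other cell types also differed in mice 3 and 4. Summed deep-layer markers were highest in these mice in both populations, at 5547 and 5296 CPM against 4315 to 4813 CPM in TdTomato+ libraries and at 1592 and 1500 CPM against 1157 to 1377 CPM in TdTomato- libraries. Tbr1, Sox5 and Bcl11b carried the TdTomato+ sum, while Fezf2 (11908 and 11641 counts against 13076 to 15088) and Foxp2 (699 and 555 against 1314 to 1535) were lowest in mice 3 and 4. Among TdTomato- libraries, Fezf2 was highest in mouse 6 (4064 counts against 2414 to 3450). In TdTomato- libraries of mice 3 and 4, Cajal-Retzius markers were the highest (338 and 371 CPM against 208 to 270.2 CPM) and microglial markers the lowest (10.95 and 14.8 CPM against 38.7 to 51.3 CPM). Summed pericyte (10.8 and 9.58 against 13.9 to 15.5 CPM) and oligodendrocyte precursor markers (40.8 and 43.1 against 52.3 to 60.9 CPM) were also lowest there. Interneuron markers were lowest there too (1276 and 1256 against 1313 to 1638 CPM), but highest in TdTomato+ libraries of these mice (62.0 and 61.5 against 41.1 to 57.2 CPM). The sum of the 2 meningeal markers was highest in these TdTomato- libraries (2.90 and 5.29 CPM against 1.88 to 2.50 CPM). Col1a2 carried it (58 and 116 counts against 20 to 39), while Dcn was not raised (26 and 16 against 16 to 28). Erythroid markers were highest in the TdTomato+ libraries of mice 3 and 4 (6.16 and 16.7 CPM against 0.227 to 2.49 CPM). Their part in the differences between mice was not tested. Hs3st3b1 kept its call without any 1 mouse (adjusted p up to 0.0302 over the alternatives). Gpc2 lost it without mouse 2, 3 or 5 (edgeR adjusted p up to 0.227), and Ndst4 without mouse 2, 3, 4 or 5 (edgeR adjusted p up to 0.0927). Hs3st4 was not called (edgeR adjusted p = 0.753): its TdTomato+ libraries of mice 3 and 4 were low and its TdTomato- libraries of the same mice high. The test takes only what a mouse's 2 libraries share, so it does not speak to spread within TdTomato+ libraries alone.

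**Figure D5:**
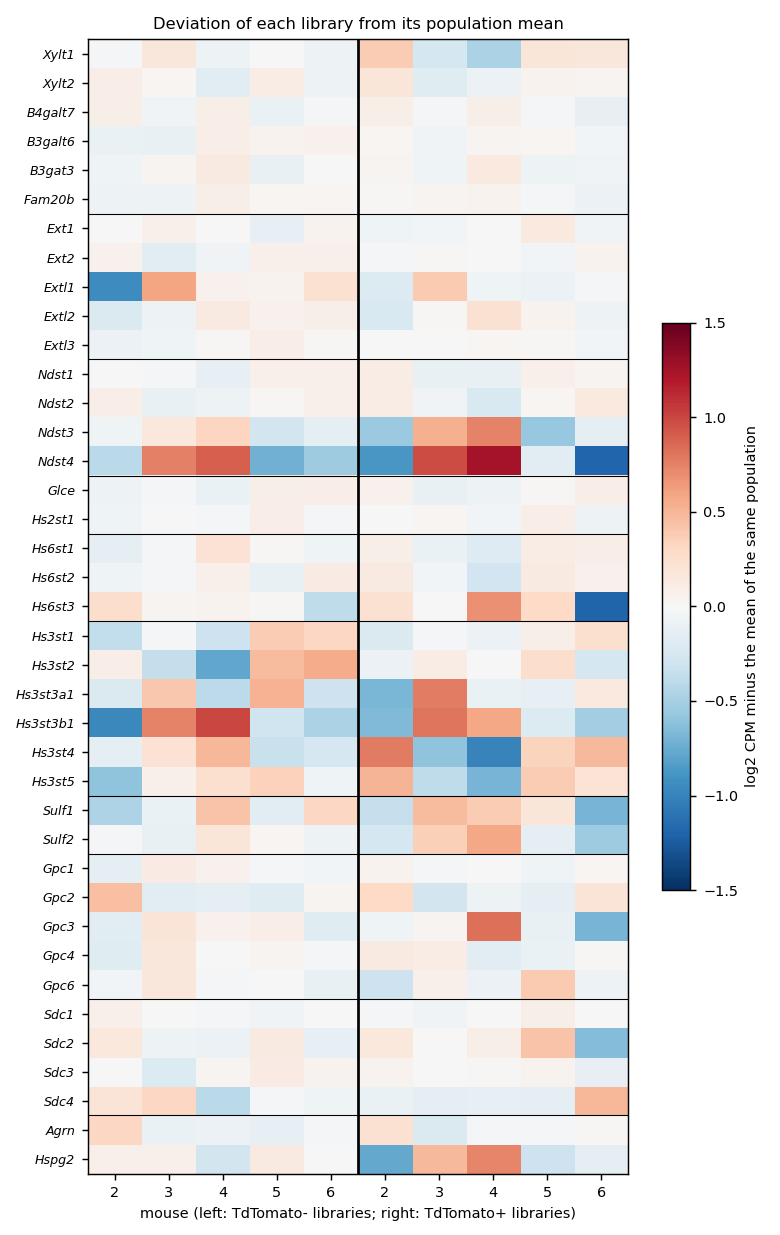
Log2 CPM of each member in each library minus the mean of the 5 libraries of the same population, with red for above and blue for below that mean. In TdTomato+ libraries of mice 3 and 4, Ndst3, Ndst4, Hs3st3b1, Sulf2 and Hspg2 are red and Hs3st4 and Hs3st5 are blue, while most linker and polymerase genes stay pale.

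Genes that feed, break down or parallel the pathway went in both directions, and 58 of them were in the table: 23 higher (39.7%), 23 lower (39.7%) and 12 not past the threshold, close to the 37.9% and 39.4% of all genes. These lists too were drawn up with results of this contrast known, and their values are a description. Of 15 genes listed for sulfate-donor and sugar supply, 6 were higher and 4 lower. The transporter genes Slc35b1 (log2 fold change 0.75, s.e. 0.05) and Slc35a3 (-1.23, s.e. 0.12) had the largest rise and fall of that list. Of 9 lysosomal breakdown genes 4 were higher and 5 lower: Ids, the iduronate sulfatase, by 1.39 (s.e. 0.06) and Gusb, the beta-glucuronidase, by -2.97 (s.e. 0.23). Of 15 genes of chondroitin sulfate synthesis, the sister chain on the same linker, 5 were higher and 6 lower. Csgalnact1, which starts that chain, had the largest rise, 2.19 (s.e. 0.18), and Chst3, a 6-O-sulfotransferase of chondroitin, the largest fall, -5.21 (s.e. 0.20).

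Genes listed as chondroitin sulfate core proteins and matrix partners were also counted, with Smc3 among the lower ones (log2 fold change -0.45). Of the 10 that were measured, 5 were higher and 4 lower, with Tnr (tenascin-R) at a log2 fold change of 2.58 (s.e. 0.15) and Bcan (brevican) at -4.53 (s.e. 0.18). Among 9 other genes listed for carrying or, as for Serpine2, binding heparan sulfate, 3 were higher and 4 lower. Both extremes were collagens with glycosaminoglycan chains, Col15a1 at 2.95 (s.e. 0.28) and Col18a1 at -4.44 (s.e. 0.12). By both thresholds, 5 of the 58 (8.62%) were higher and 6 (10.3%) lower, beside 3.2% and 9.74% of all genes.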

How the data were processed

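Bulk mRNA sequencing was analysed in 10 libraries, made from both sorted populations of each of 5 mice. The deposited values are whole-number counts of reads per Ensembl gene, which the authors made by aligning to GRCm38 with STAR 2.4.2a and analysed with edgeR 3.28.0, per the submitters' processing notes. The study's methods mention the removal of outliers but do not say what was removed. The annotation release and the strand setting of the counting are not given in the sources used here, and the labels and the methods name different library kits and read lengths. The table held 14300 genes, each above 0.5 CPM (before TMM scaling) in at least 5 libraries. Totals were 23429034 to 27286180 counts per library. A gene under 3 counts in a library (0.104 to 0.136 CPM after TMM scaling) was at the limit of counting.

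From these counts, edgeR 4.0.16 in R 4.3.3 was used with filterByExpr, TMM factors, a design of mouse and population, a prior count of 0.125 and the quasi-likelihood F-test, with Benjamini-Hochberg adjustment over all 14300 genes. Calls used an adjusted p of 0.05, alone or with an absolute log2 fold change of 2. The 4 mouse terms were tested together in the same fit. Mouse was taken as a block because the labels give the same number to the sorted pair of a mouse, and deviations from the population means were correlated within every pair (0.186 to 0.316, against -0.312 to 0.212 between different mice). Whether mouse numbers are separate litters is not stated, so p values measure the spread between these samples. Levels per kilobase used summed exonic length in GENCODE vM21 (GRCm38). Alternatives were RLE and upper-quartile scaling, other count filters, robust estimation, a prior count of 2, TREAT, DESeq2 1.42.0, no block and leaving out each mouse. The fit was tested on simulated data.

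The members and the other gene lists were chosen with earlier results of these data known. Values in every library are given for the member with the largest absolute log2 fold change of each step and for members spread over more than 3-fold within a population, and of each other list the gene with the largest rise and fall is named. Values of every library for Hs3st2, Hs3st5, Gpc2 and Sulf2 were added after they were seen. Promoter windows came from RefSeq (GRCm38.p6), without those on chromosome 18, where Ndst1 lies.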

Additional observations from a re-analysis of the deposited data

Results flagged for a closer look

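In 78 groups of 5 libraries (39 members in each population), 3 libraries stood apart from the other 4 by Dixon's ratio of the gap to the whole range, taken on log2 CPM with a prior count of 2, whose limit for 5 samples is 0.71. The CPM beside each ratio are on the linear scale. A rate of 1 in 20 would give 3.9 such groups. The TdTomato+ library of mouse 3 was the highest for Extl1 (ratio 0.716), at 0.998 CPM from 23 counts against 0.635 to 0.723 CPM in the others. The TdTomato+ library of mouse 6 was the highest for Sdc4 (ratio 0.948), at 0.181 CPM from 4 counts against 0.0867 to 0.0907 CPM. The TdTomato- library of mouse 2 was the highest for Agrn (ratio 0.759), at 738 CPM against 545 to 587 CPM, and the TdTomato+ library of the same mouse was the highest of its population as well, at 644 CPM.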

How the results depend on the processing

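Of 505 member fold changes under 13 alternatives, 489 kept their direction and side of the threshold, 12 lost the threshold, 3 passed it and 1 changed sign: Ext2, which was not called and ranged from -0.0102 (without mouse 3) to 0.0636 when a mouse was left out. For 32 members the direction and the side of an adjusted p of 0.05 held under each of these that could be fitted. Members lower by both thresholds numbered 4 to 6 (5 as reported) outside TREAT: Hs3st3a1 fell short of the log2 limit with a prior count of 2 and was removed by the filter of 1 CPM, and Gpc6 passed it under upper-quartile scaling and without mouse 5. With no replicate block, 15 members were higher and 16 lower (19 with it), Ndst4, Hs3st1 and Agrn losing their calls. Agrn also lost it under RLE, in DESeq2 and without mouse 2, 3 or 6, and B3galt6 in DESeq2 and without mouse 4, 5 or 6. TREAT left 2 members lower (5 before) and 2 of the neighbouring genes higher (5 before), and this follows from its stricter hypothesis. The number of members that differed between mice was 1 to 3 when a mouse was left out: 1 without mouse 2, 3 or 5. Without division by length, shares in TdTomato+ and TdTomato- cells came to 76.9% for Ndst1 in TdTomato- cells, 66.6% and 64.2% for Hs6st1, 7.48% and 64.7% for Hs3st1, 88.5% and 89.7% for Sulf2, 46.3% and 70.1% for Gpc1, 96.4% and 87.3% for Sdc3, and 97.3% and 89.4% for Agrn. These follow from the genes' lengths. Low counts limit Sdc4, Hs3st3a1, Gpc3 and Extl1 in TdTomato+ cells, where most libraries held fewer than 20 reads of each, and Extl1 in TdTomato- cells as well.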
